A study of Gallus gallus with 6 samples.

Results

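Protein tyrosine phosphatases remove phosphate from tyrosine, and their dual-specificity relatives also act on serine and threonine. The genes described here were all those whose single annotated symbol begins with PTPN (cytosolic), PTPR (receptor type), PTP4A (membrane-anchored) or DUSP (dual specificity), apart from PTPRC, DUSP4, DUSP5 and DUSP6. They numbered 55 of the 13009 genes with a symbol on the array, namely 13 PTPN, 19 PTPR, 3 PTP4A and 20 DUSP genes. Their expression was measured on 6 one-colour Affymetrix chicken arrays. Of these, 3 carried RNA of primordial germ cells (PGC), from which eggs and sperm later arise, and 3 carried RNA of embryonic fibroblasts (CEF, connective tissue cells). The PGC had been grown from dorsal aorta blood taken on embryonic day 2.5, with 20 embryos pooled for each replicate, in knockout DMEM containing human bFGF at 10 ng/ml. The CEF had been grown from day 6.5 embryos, with 5 embryos pooled for each replicate, after the internal organs and limbs had been taken off, in DMEM with 10% FBS, up to passage 2. No genotype or strain was given for either. Embryonic age, medium and cell type changed together, so they cannot be told apart. The CEF came from the whole remaining body and can hold other cell types, and both were cultures rather than cells taken directly from the embryo.

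Tyrosine phosphorylation is set by the balance between kinases and these phosphatases, which share a catalytic cysteine. Receptor-type phosphatases cross the membrane and carry adhesion-like outer domains. Cytosolic ones are directed by SH2, FERM, PDZ or other domains. The MAP kinase phosphatases among the DUSP genes switch off ERK, JNK and p38, and several are induced by the very kinases they dephosphorylate. In avian germ cells FGF signalling through ERK sustains growth in culture, and in fibroblasts focal adhesions and growth factor receptors are major sites of tyrosine phosphorylation.

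The labelled cell types were borne out by their markers. All 7 germ cell markers were higher in PGC, among them DDX4 (10.83 in PGC and 1.40 in CEF, on the log2 scale) and DAZL (11.33 and 1.06). All 7 fibroblast markers were higher in CEF, among them COL1A1 (12.10 in CEF and 4.14 in PGC) and POSTN (10.72 and 0.45). The medians of the 6 arrays, on the log2 scale, ran from 2.69 to 2.77. The background level, the 95th percentile of 687 probe sets for sequences not from chicken, was 1.68 in PGC and 1.97 in CEF. Replicates of CEF varied more than those of PGC, with a median SD over the phosphatase genes of 0.229 against 0.0855. The 5′ minus 3′ difference of the control transcript dap was -3.17 on CEF replicate 1, against -1.97 and -1.86 on the other CEF arrays and -1.24 on each PGC array. For chicken actin it was -0.89, -0.25 and 0.01 on CEF arrays 1, 2 and 3, and -0.69 to -0.57 on the PGC arrays. For chicken GAPDH it was -0.26, -0.10 and 0.26 on the CEF arrays, and 0.17 to 0.21 on the PGC arrays. Without CEF replicate 1 all 15 calls given below held.

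The comparison asked how the phosphatase transcripts of cultured germ cells differ from those of cultured fibroblasts. PTPRF, PTPN1, DUSP3 and DUSP7 were higher in PGC. PTPRQ, PTPRG, PTPRZ1, PTPRN2, PTPRVP, PTPN6, PTPN21, DUSP1, DUSP8, DUSP10 and PTP4A1 were higher in CEF. A gene was called when limma gave a Benjamini-Hochberg adjusted p under 0.05 over all probe sets and the difference was at least 2-fold, with each gene read by its probe set of the highest mean. By this rule 4 of 55 phosphatase genes (7.27%) were higher in PGC, where 17.6% of all genes were, and 11 (20.0%) were higher in CEF, where 14.9% of all genes were. In all, 27.3% of the phosphatase genes, 32.5% of all genes and 24.6% of all probe sets were called, and no test of the family as a whole was made.

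Of the 40 genes not called, 11 had an adjusted p under 0.05 towards PGC and 8 towards CEF at less than 2-fold, and 21 did not pass the threshold. An adjusted p under 0.05 at any fold was thus reached by 61.8% of the phosphatase genes and by 61.5% of all genes. The median difference, PGC minus CEF, was -0.16 on the log2 scale for the phosphatase genes and -0.05 for all genes. The PTPN genes had a median of 0.38, the PTPR genes of -0.34, the 20 DUSP genes of -0.06 and the 3 PTP4A genes of -0.91. For 40 of 55 genes (72.7%) all arrays of either cell type lay above all arrays of the other, as they did for 71.2% of all genes. The calls depended on how the arrays were scaled. For the bacterial control transcripts bioB, bioC and bioD the mean log2 level in PGC minus that in CEF was -0.97 over 21 probe sets. For cre, the other control of this kind, it was only -0.13 over 6 probe sets (11.20 in PGC and 11.33 in CEF), so the controls did not give 1 common shift. The cre level was near the highest values of the arrays, 12.36 to 12.52, whereas bioB, bioC and bioD averaged 6.46 in PGC and 7.44 in CEF. Whether its high level limited the difference of cre was not tested. When the arrays were scaled to bioB, bioC and bioD alone, the median over all genes moved from -0.05 to 0.93, with calls for 26 phosphatase genes towards PGC and 4 towards CEF. The share of all called probe sets that were higher in PGC then moved from 59.1% to 89.8%. Under limma's treat test, which asks for more than 2-fold, DUSP8, PTP4A1 and PTPRZ1 were no longer called. All 4 genes called in PGC, and DUSP1, PTPN6, PTPN21 and PTPRQ in CEF, held their calls under each of the 15 alternatives run. Some alternatives could not end some of these calls. The scaling to bioB, bioC and bioD raised every difference towards PGC, so it could only weaken calls in CEF. Averaging probe sets left the values of DUSP1, DUSP3, PTPN1, PTPN6, PTPN21 and PTPRQ unchanged, since each has 1 probe set.

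**Figure D1:**
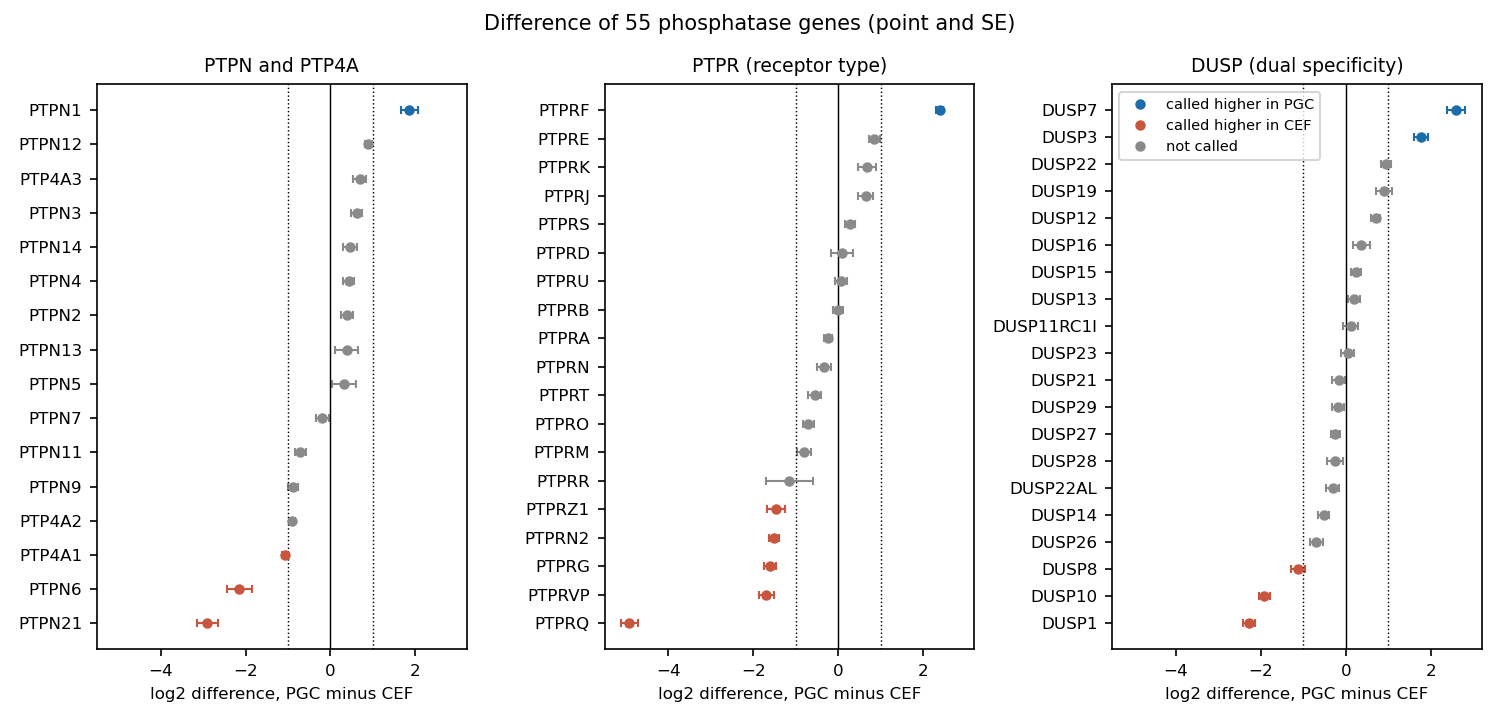
Log2 difference (PGC minus CEF, horizontal axis) of each of the 55 phosphatase genes, with points for the difference, bars for its standard error (3 arrays per cell type) and dotted lines at 2-fold. The largest differences were those of PTPRQ (-4.91) towards CEF and DUSP7 (2.60) towards PGC, and after scaling to bioB, bioC and bioD every point would lie 0.97 further to the right.

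PTPRF encodes LAR, a receptor phosphatase with immunoglobulin and fibronectin repeats that binds liprins and heparan sulphate proteoglycans. Its log2 values were 9.47, 9.37 and 9.23 on the PGC arrays and 6.97, 6.90 and 7.02 on the CEF arrays. The PGC arrays were all higher, and the CEF values were far above background. The difference was 2.39 ± 0.09 (SE, n = 3 per cell type), a 5.24-fold higher level in PGC (limma adjusted p = 1.7e-07). Its relatives PTPRS and PTPRD were not called, with differences of 0.28 ± 0.11 (adjusted p = 0.068) and 0.10 ± 0.26 (adjusted p = 0.77). PTPRD lay between 1.67 and 2.69 on the 6 arrays, at or little above background, and its difference changed sign when the arrays were centred on their 75th percentile (-0.02).

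DUSP7, a cytosolic MAP kinase phosphatase that acts mainly on ERK, read 5.31, 5.52 and 5.44 in PGC and 2.35, 2.97 and 3.15 in CEF. It differed by 2.60 ± 0.21, a 6.07-fold higher level in PGC (adjusted p = 1.3e-05). PTPN1, or PTP1B, sits on the endoplasmic reticulum and dephosphorylates the insulin receptor and other receptor kinases. It read 5.65, 5.76 and 5.92 in PGC and 3.51, 4.05 and 4.21 in CEF, a difference of 1.85 ± 0.20 (3.61-fold, adjusted p = 6.7e-05). Its closest relative PTPN2, which acts on JAK and STAT proteins, read 7.57, 7.63 and 7.64 in PGC and 6.92, 7.36 and 7.38 in CEF. The arrays of PTPN2 did not overlap either, but the difference of 0.39 ± 0.13 was 1.31-fold. Its other probe set was almost as bright, with means of 7.93 in PGC and 6.89 in CEF. That probe set was called in PGC at 1.035 (2.05-fold), so whether PTPN2 is called depends on the probe set read. DUSP3, a small phosphatase also called VHR that acts on ERK and JNK, read 6.998, 6.945 and 6.968 in PGC and 5.49, 5.21 and 4.88 in CEF. Its difference was 1.78 ± 0.16 (3.43-fold, adjusted p = 2.6e-05), and no CEF array reached the PGC range.

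**Figure D2:**
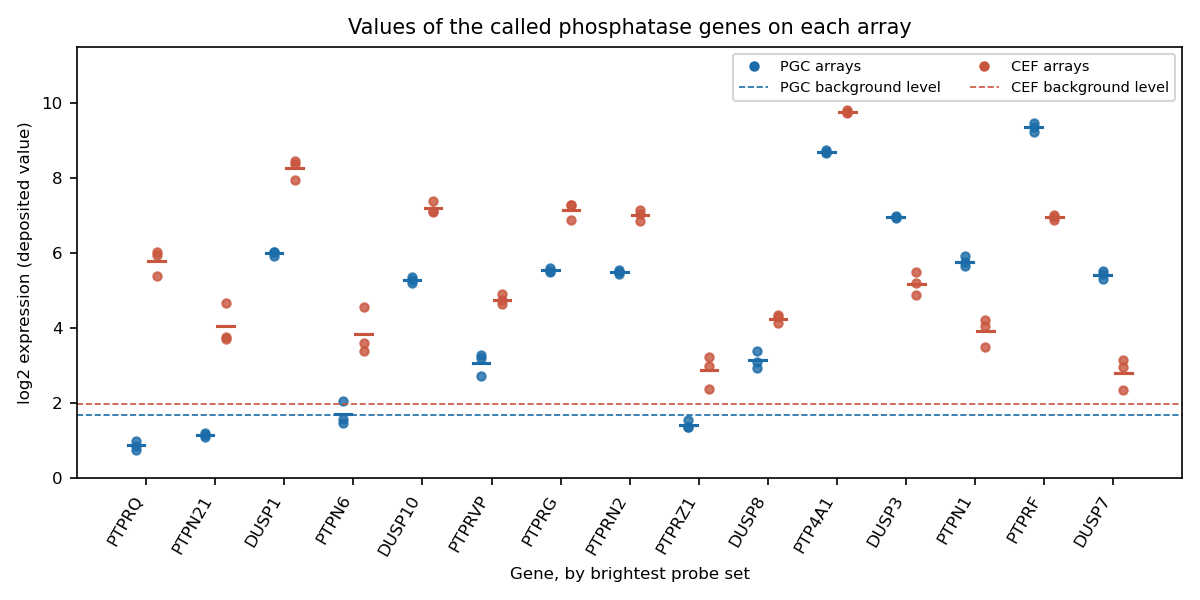
Log2 expression (vertical axis) of the 15 called phosphatase genes on each of the 6 arrays, with short bars for the mean of 3 arrays and dashed lines for the background level of each cell type. The arrays of PGC and CEF did not overlap for any of them, and PTPRQ, PTPN21 and PTPRZ1 lay under background on the PGC arrays.

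Of the 19 receptor-type genes, 5 (26.3%) were higher in CEF, where 14.9% of all genes were. PTPRF alone (5.26%) was higher in PGC, where 17.6% of all genes were. PTPRQ, which in mammals is known from the hair bundles of the inner ear and acts on phosphoinositides, had the largest difference of all 55 genes. It read 0.77, 0.87 and 1.00 in PGC, under background, and 5.39, 5.96 and 6.02 in CEF. The CEF level was at least 17.2-fold higher (-4.91 ± 0.19, adjusted p = 1.9e-07). PTPRVP, whose human counterpart is a pseudogene, read 2.73, 3.21 and 3.30 in PGC and 4.76, 4.91 and 4.64 in CEF. It was 3.23-fold higher in CEF (-1.69 ± 0.18, adjusted p = 7.5e-05), or -0.72 and no longer called after scaling to the bacterial controls.

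PTPRG and PTPRZ1, the pair of receptors with a carbonic anhydrase-like outer domain that binds contactins, were both higher in CEF. PTPRG read 5.51, 5.61 and 5.54 in PGC and 7.29, 7.30 and 6.89 in CEF, a 3.04-fold difference (-1.60 ± 0.14, adjusted p = 1.8e-05). PTPRZ1, which also binds pleiotrophin, read 1.55, 1.37 and 1.37 in PGC, under background, and 2.999, 3.250 and 2.388 in CEF. It was at least 2.29-fold higher (-1.45 ± 0.21, adjusted p = 0.00051), and its lowest CEF array stood little above the background of 1.97. Both lost their calls after scaling to the bacterial controls, at -0.63 and -0.48, and PTPRZ1 also when its probe sets were averaged (-0.87) and under the treat test. PTPRZ1 is otherwise known from glia. Of 9 neural markers measured, 4 (44.4%) were higher in PGC, where 17.6% of all genes were, and the others were not called. Of the others, 2 had an adjusted p under 0.05 towards CEF at less than 2-fold, and the median difference of the 9 was -0.21. Their summed level, which the brightest genes dominate, was 9.97 to 10.1 on the PGC arrays and 6.34 to 6.44 on the CEF arrays. Most of these markers are genes of neurons, so the list says little about glia. The part of neural or glial cells in the PTPRZ1 difference was not tested.

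PTPRN2, a receptor-like protein of secretory granules with little activity towards tyrosine in mammals, read 5.55, 5.51 and 5.44 in PGC and 7.04, 7.16 and 6.85 in CEF. It was 2.86-fold higher in CEF (-1.52 ± 0.12, adjusted p = 1.1e-05), or -0.55 and not called after scaling to the bacterial controls. Its relative PTPRN differed by -0.34 ± 0.16 (adjusted p = 0.12), and the arrays overlapped. Among the genes for ligands and partners of receptor phosphatases, 5 of 34 measured (14.7%) were called in PGC and 6 (17.6%) in CEF. For all genes these shares were 17.6% and 14.9%, and the median difference of the 34 was -0.09. PTN, or pleiotrophin, a ligand of PTPRZ1, was 28.2-fold higher in CEF (-4.82 ± 0.14). TNC, the matrix protein tenascin C, was 61.1-fold higher (-5.93 ± 0.17) and the galectin LGALS3 33.8-fold (-5.08 ± 0.18). Higher in PGC were SLITRK4, of a family that binds LAR-type receptors at synapses (at least 5.71-fold, 2.60 ± 0.15), NTRK3, a neurotrophin receptor that binds PTPRS (4.96-fold, 2.31 ± 0.18), and the basement membrane protein NID1 (3.21-fold, 1.68 ± 0.14).

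The other receptor-type genes were not called. The MAM-domain receptors, which mediate adhesion between like cells, differed by 0.68 ± 0.21 (PTPRK), -0.80 ± 0.16 (PTPRM), -0.55 ± 0.15 (PTPRT) and 0.07 ± 0.14 (PTPRU). PTPRT (1.73 in PGC and 2.29 in CEF) and PTPRU (2.15 and 2.08) stood close to background. After scaling to the bacterial controls PTPRM was at 0.18 and PTPRT at 0.42, both with the sign turned. PTPRA, which activates SRC, read 7.87, 7.95 and 7.89 in PGC and 8.29, 8.11 and 8.03 in CEF. The CEF arrays were all higher, but the difference of -0.24 ± 0.09 (1.18-fold) did not pass the threshold (adjusted p = 0.062). Its shorter relative PTPRE differed by 0.85 ± 0.13 towards PGC, with all CEF arrays under background. PTPRJ, which restrains growth factor receptors, differed by 0.65 ± 0.17 towards PGC, and PTPRO by -0.70 ± 0.13, which turned to 0.27 after that scaling. PTPRB, the phosphatase of vascular endothelium, read between 1.92 and 2.14 on the 6 arrays, at or little above background. Its difference of 0.00 ± 0.12 therefore says little about its level in either cell type. Of 9 endothelial markers 3 (33.3%) were higher in CEF, where 14.9% of all genes were. CDH5, TEK and EMCN stood at background in both cell types.

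PTPRR, which binds MAP kinases, was singled out after its values were seen. It was at background in PGC, between 0.76 and 0.86. In CEF it read 1.66, 0.79 and 3.45, so that replicate 3 alone lay above background. The difference of -1.15 ± 0.55 was not called (adjusted p = 0.12). The 2 other probe sets of PTPRR read at most 1.13 on every array, CEF replicate 3 included. Without CEF replicate 2 the difference was called at -1.74 (adjusted p = 0.02), and with array weights per cell type it was called at -1.15 (adjusted p = 0.034).

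Among the MAP kinase phosphatases, DUSP1, DUSP8 and DUSP10 were higher in CEF, DUSP7 was higher in PGC, and DUSP16 was not called (0.37 ± 0.20). DUSP1, a nuclear enzyme induced early by stress and growth factors, read 5.93, 6.04 and 6.04 in PGC and 7.96, 8.39 and 8.46 in CEF. It was 4.82-fold higher in CEF (-2.27 ± 0.14, adjusted p = 2.8e-06). DUSP10, which prefers JNK and p38, read 5.28, 5.21 and 5.37 in PGC and 7.09, 7.12 and 7.40 in CEF. It was 3.78-fold higher (-1.92 ± 0.13, adjusted p = 3.6e-06), or -0.95 after scaling to the bacterial controls, just short of 2-fold. DUSP8, which also acts on JNK and p38, read 2.94, 3.39 and 3.10 in PGC and 4.30, 4.35 and 4.13 in CEF. Its 2.17-fold difference (-1.12 ± 0.16, adjusted p = 0.00044) was no longer called after that scaling (-0.14), when all its probe sets were averaged (-0.45) or under the treat test. The genes left out by the rule went both ways, with the ERK phosphatases DUSP4 (1.32) and DUSP6 (1.12) higher in PGC and DUSP5 (-4.75) higher in CEF.

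Of 15 measured MAP kinases and MAP kinase kinases, 4 were called in PGC and 1 in CEF, and the median difference was 0.52, beside 17.6%, 14.9% and -0.05 for all genes. In percent, the calls of these kinases were 26.7 and 6.67. MAP2K5, the activator of ERK5, was 8.51-fold higher in PGC (3.09 ± 0.20). MAPK8, or JNK1, was 5.85-fold higher (2.55 ± 0.20) and MAPK11, or p38 beta, 3.87-fold higher (1.95 ± 0.14). MAPK10, or JNK3, was called towards CEF (-1.14 ± 0.24), but it lay under background in PGC, so that the data bound its fold only at 1.57 or more. That call ended without CEF replicate 3 (-0.85) and after scaling to the bacterial controls (-0.17).

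Among the cytosolic PTPN genes, 2 of 13 (15.4%) were higher in CEF, close to the 14.9% of all genes. PTPN1 alone (7.69%) was higher in PGC, where 17.6% of all genes were. PTPN21, a FERM-domain phosphatase that binds SRC, read 1.10, 1.17 and 1.21 in PGC, under background, and 3.77, 3.71 and 4.68 in CEF. The CEF level was at least 5.17-fold higher (-2.90 ± 0.25, adjusted p = 1.9e-05). Its only probe set has a suffix that marks it as shared between transcripts. The other 4 FERM-domain genes were not called. Their differences were 0.62 ± 0.13 for PTPN3, 0.43 ± 0.13 for PTPN4, 0.38 ± 0.27 for PTPN13 and 0.46 ± 0.17 for PTPN14, and those of PTPN13 and PTPN14 did not pass the threshold (adjusted p = 0.27 and 0.056). For PTPN13 the CEF arrays ranged from 4.52 to 5.72 around the PGC arrays of 5.39 to 5.47, and 2 of 3 CEF arrays of PTPN14 lay under background.

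PTPN6, or SHP1, an SH2-domain phosphatase that is typical of blood cells, read 1.59, 2.06 and 1.49 in PGC, with 2 of 3 arrays under background, and 3.61, 3.39 and 4.56 in CEF. It was 4.42-fold higher in CEF (-2.14 ± 0.30, adjusted p = 0.00039), as read by a probe set whose suffix marks it as shared between transcripts. Of 11 measured leukocyte markers 6 (54.5%) were higher in CEF and 1 (9.09%) in PGC, beside 14.9% and 17.6% of all genes. Their summed log2 level was 6.53 to 6.60 on the PGC arrays and 8.45, 7.86 and 9.34 on the CEF arrays 1, 2 and 3, while the T cell markers CD3E, CD4 and CD8A stood at background in both cell types and SPI1, TLR4 and LY86 in PGC. PTPRC, the leukocyte phosphatase CD45 and one of these markers, read 2.55, 2.56 and 2.55 in PGC and 6.89, 6.64 and 7.41 in CEF. CEF replicate 3 was the highest and CEF replicate 2 the lowest of the CEF arrays in the summed level, in PTPRC and in PTPN6. The order was not particular to PTPN6, since PTPN21 and PTPRR had it too, and the called marker CD74, named after its values were seen, was highest on CEF replicate 1. The part of the leukocyte markers in the PTPN6 difference was not tested, and in bulk RNA fewer cells of a type and less RNA per cell cannot be told apart.

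**Figure D3:**
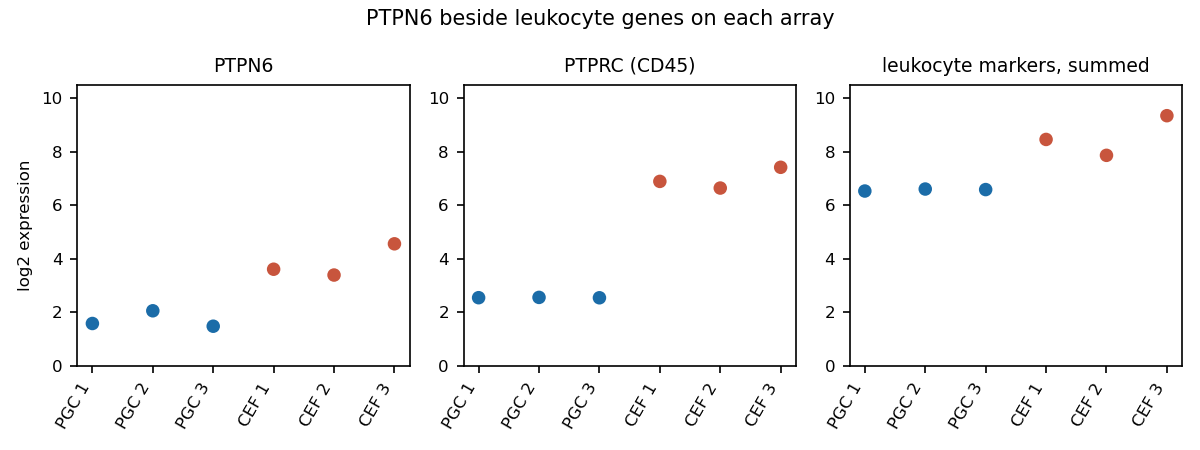
Log2 expression (vertical axes) of PTPN6, of PTPRC and of the summed leukocyte markers on each of the 6 arrays. In all 3 panels the CEF arrays lie above the PGC arrays and CEF replicate 3 is the highest, at 4.56 for PTPN6, 7.41 for PTPRC and 9.34 for the summed markers.

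PTPN11, or SHP2, the broadly expressed relative of PTPN6 that carries signals from receptor kinases to ERK, was not called. Its log2 level was 6.13 ± 0.08 (SD, n = 3) in PGC and 6.84 ± 0.19 in CEF, and the arrays did not overlap. The difference was -0.71 ± 0.13 (1.64-fold, adjusted p = 0.0016), and it turned to 0.26 after scaling to the bacterial controls. Of 26 measured adaptors and partners of SHP2, 4 (15.4%) were called in PGC and 4 (15.4%) in CEF, beside 17.6% and 14.9% of all genes. Their median difference was -0.17. IRS2, an insulin receptor substrate, was 5.97-fold higher in PGC (2.58 ± 0.15), the ERK inhibitor SPRY1 3.0-fold (1.58 ± 0.16) and the ubiquitin ligase CBL 2.52-fold (1.33 ± 0.17). SHC4 was 4.54-fold higher in CEF (-2.18 ± 0.20), the SHP2-binding membrane protein MPZL1 4.23-fold (-2.08 ± 0.15) and FRS3, an adaptor of FGF receptors, 2.66-fold (-1.41 ± 0.15). As the mean of their probe sets IRS2 (0.71) and MPZL1 (-0.31) were no longer called, nor was FRS3 after scaling to the bacterial controls (-0.44).

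PTPN12, or PTP-PEST, which acts on focal adhesion proteins such as p130Cas, read 9.44, 9.40 and 9.35 in PGC and 8.66, 8.36 and 8.49 in CEF. Its difference of 0.89 ± 0.09 (1.86-fold, adjusted p = 4.2e-05) was short of 2-fold, although the PGC arrays were all higher. PTPN9, which carries a lipid-binding domain and sits on secretory vesicles, differed by -0.88 ± 0.11 (1.85-fold), or -1.01 and called with the arrays centred on their 75th percentile. PTPN5 and PTPN7, which bind MAP kinases directly as PTPRR does, were not called (0.32 ± 0.29 and -0.19 ± 0.16). The CEF arrays of PTPN5 ranged from 4.41 to 5.56, around the PGC arrays of 4.98 to 5.23.

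The PTP4A genes encode the PRL phosphatases, small enzymes anchored to membranes by a lipid group that bind CNNM magnesium transport proteins. PTP4A1 was higher in CEF, with log2 levels of 8.71 ± 0.05 (SD, n = 3) in PGC and 9.78 ± 0.03 in CEF, a 2.10-fold difference (-1.07 ± 0.06, adjusted p = 1.9e-06) that the treat test did not call. Dimmer probe sets of PTP4A1 were called in CEF at -1.31 and -1.99, and not called at -0.84 (limma adjusted p = 0.076). PTP4A2 read 8.91, 8.88 and 8.92 in PGC and 9.92, 9.74 and 9.78 in CEF, 1.88-fold higher in CEF (-0.91 ± 0.07, adjusted p = 7.7e-06) and so just short of the 2-fold minimum. PTP4A3 differed the other way by 0.68 ± 0.15 (1.61-fold, adjusted p = 0.0059), from 7.14 ± 0.09 in PGC to 6.45 ± 0.30 in CEF. After scaling to the bacterial controls PTP4A1 was at -0.10, PTP4A2 at 0.06 and PTP4A3, then called in PGC, at 1.66. That scaling shifts the 3 genes equally and leaves the gaps between their differences as they were.

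The 15 dual-specificity genes outside the MAP kinase phosphatases held 1 call (6.67%), that of DUSP3, where 32.5% of all genes were called. The 5 MAP kinase phosphatases held 4 calls (80.0%), and of all 20 DUSP genes 25.0% were called. Of the 15, 4 were at background in both cell types, as were 1548 of all 13009 genes. DUSP22, an activator of JNK signalling, read 8.97, 8.90 and 8.84 in PGC and 8.19, 7.94 and 7.73 in CEF. Its difference of 0.95 ± 0.12 (1.93-fold, adjusted p = 0.00019) was just short of 2-fold, and without CEF replicate 1 it was called at 1.07. DUSP19 stood close to that limit as well, at 0.91 ± 0.18 (1.88-fold), and without CEF replicate 3 it was called at 1.12. DUSP12, a phosphatase with a zinc-binding end, differed by 0.70 ± 0.11 towards PGC, and its SD was 0.04 in either cell type. DUSP14 read 7.05, 7.08 and 7.21 in PGC and 7.82, 7.40 and 7.69 in CEF, higher on all CEF arrays by 0.52 ± 0.13 (1.44-fold, adjusted p = 0.0083). DUSP26 differed by -0.69 ± 0.16.

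DUSP23 (0.05 ± 0.16), DUSP11RC1I (0.11 ± 0.18) and DUSP21 (-0.16 ± 0.15) were measured above background, and their arrays overlapped. The sign of all 3 turned under at least 1 other scaling. DUSP22AL, DUSP27, DUSP28 and DUSP29 were at background in both cell types, as was PTPRR by its means, which made 5 of 55 genes. The other 50 were above background in at least 1 cell type, and 43 in both. DUSP13, known with DUSP29 from mammalian muscle, and DUSP15 stood close to background, at 1.73 and 1.98 in PGC and at 1.53 and 1.73 in CEF. None of these 6 DUSP genes passed the threshold (adjusted p = 0.07 to 0.29).

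The 55 genes were covered by 127 probe sets, and 33 genes had several. For 9 genes, with PTPN6, PTPN21 and PTP4A1 among those called, the brightest probe set had a suffix that marks it as shared between transcripts. Of these 33, 9 were not called by their brightest probe set but by another (27.3%), as were 14.5% of all genes with several probe sets. None of the 33 had probe sets called in opposite directions, which held for 0.709% of all such genes. In DUSP22, PTP4A3, PTPN2, PTPN3, PTPN5, PTPRK and PTPRS the other probe sets were called towards PGC. Those of PTP4A3, at 1.73, 1.60 and 1.54, stood beside 0.68 for its brightest, and the one of DUSP22 at 1.73 stood beside 0.95. PTPRS had 10 probe sets, of which 2 were called at 1.36 and 1.32, while the others lay between -0.52 and 0.90. In PTP4A2 (-1.09) and PTPRA a dimmer probe set was called towards CEF. That of PTPRA was under background in PGC, and the data bound its fold only at 1.41 or more, short of 2-fold.

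**Figure D4:**
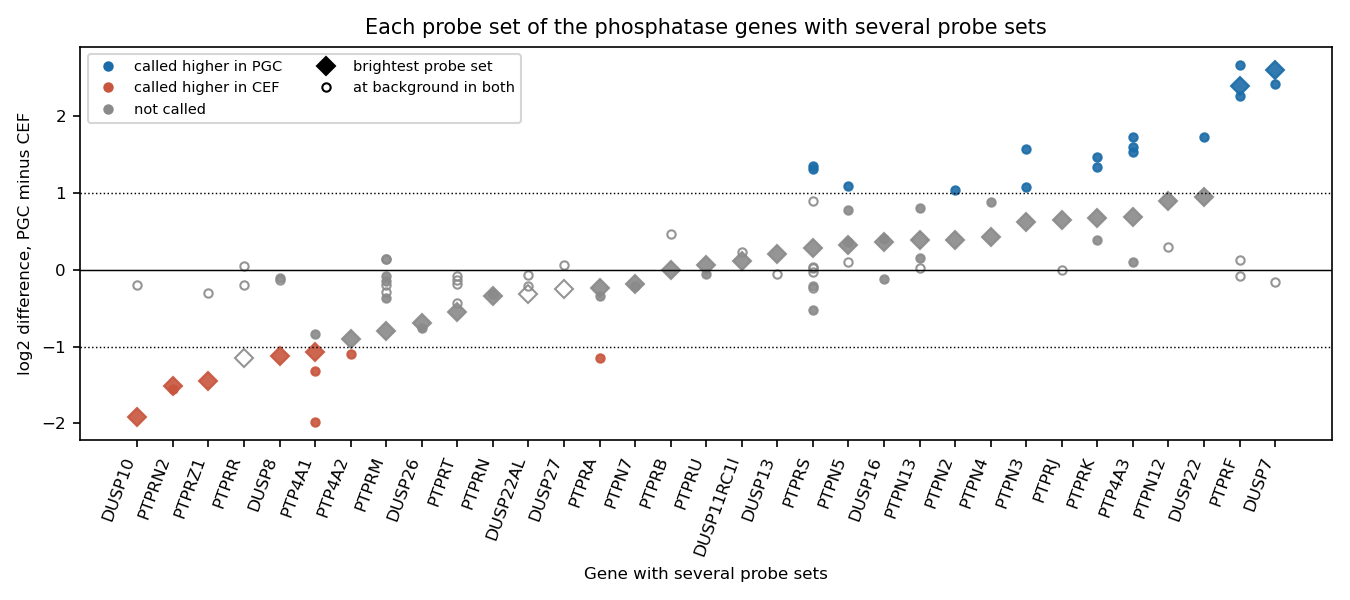
Log2 difference (PGC minus CEF, vertical axis) of every probe set of the 33 phosphatase genes with several, with diamonds for the brightest probe set, open symbols for probe sets at background in both cell types and dotted lines at 2-fold. All probe sets of PTPRF and DUSP7 above background lay between 2.26 and 2.67, whereas those of PTPRS ran from -0.52 to 1.36.

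The tyrosine kinases that these phosphatases oppose were called in both directions. Of 47 measured receptor tyrosine kinases 8 (17.0%) were called in PGC and 13 (27.7%) in CEF, beside 17.6% and 14.9% of all genes. Their median difference was -0.29. KIT, which binds stem cell factor, was at least 178-fold higher in PGC (8.55 ± 0.18) and is also one of the germ cell markers. FGFR3, a receptor of the bFGF family of ligands, was 26.4-fold higher in PGC (4.72 ± 0.15) and the ephrin receptor EPHA5 at least 7.81-fold (3.25 ± 0.16). DDR2, a collagen receptor, was 15.8-fold higher in CEF (-3.98 ± 0.20), the hepatocyte growth factor receptor MET at least 9.29-fold (-3.65 ± 0.16) and the PDGF receptor PDGFRB 11.7-fold (-3.54 ± 0.12).

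Of 27 measured non-receptor tyrosine kinases 5 (18.5%) were called in PGC and 5 (18.5%) in CEF, beside 17.6% and 14.9% of all genes. Their median difference was -0.27. The ABL-family kinases differed in opposite directions, with ABL2 6.35-fold higher in PGC (2.67 ± 0.10) and ABL1 3.04-fold higher in CEF (-1.60 ± 0.09). JAK3 was 4.50-fold (2.17 ± 0.16) and TEC 2.65-fold higher in PGC (1.41 ± 0.22). The SRC-family kinases FYN and LYN were 4.61-fold (-2.21 ± 0.10) and 3.97-fold (-1.99 ± 0.13) higher in CEF. As the mean of their probe sets ABL2 (0.83), ABL1 (-0.77), TEC (0.58) and LYN (-0.84) were no longer called, nor was ABL1 after scaling to the bacterial controls (-0.63).

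Of 32 measured genes for other phosphatases and their relatives, outside these symbol families, 7 (21.9%) were called in PGC and 4 (12.5%) in CEF. For all genes these shares were 17.6% and 14.9%, and the median difference of the 32 was 0.12. TPTE, a membrane phosphatase, was 5.24-fold higher in PGC (2.39 ± 0.15), PTPDC1 at least 3.59-fold (2.14 ± 0.13) and the phosphoinositide phosphatase MTMR1 3.33-fold (1.74 ± 0.14). EYA2, a transcription cofactor with an aspartate-based phosphatase domain, was 4.54-fold higher in CEF (-2.18 ± 0.17). EPM2A, the glycogen phosphatase laforin, was 3.21-fold higher in CEF (-1.68 ± 0.24), or -0.71 and not called after scaling to the bacterial controls. UBASH3A, a histidine-type phosphatase of T cells, was called at -1.28 ± 0.32 (2.43-fold), but not without CEF replicate 2 (-0.87) or after that scaling (-0.31). The 6 lists of kinases, partners, ligands and other phosphatases were not tested as sets. Their calls are read only beside the 17.6% and 14.9% of all genes.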

How the data were processed

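RNA of 3 PGC and 3 CEF cultures, labelled as biological replicates, was measured on Affymetrix chicken arrays, with 38535 probe sets. The deposited log2 values are the authors' processed values. MAS5 and GCOS are named in the submitters' processing notes, without a role or version, and the logarithm's base was read from the values, which ran up to 12.52. Here the values were fitted under R 4.3.3 with cell type as the only term, and limma 3.58.1 gave two-sided moderated tests from eBayes, allowing its prior variance to follow intensity. Benjamini-Hochberg adjustment ran over 38439 probe sets, without 96 control probe sets. Calls required an adjusted p under 0.05 and at least 2-fold. Symbols came from GEO's platform annotation, which gave 1 symbol for 27178 probe sets, several for 177 and none for 11180. All 55 members' symbols are also current in RefSeq. Differences are PGC minus CEF with the standard error of the fit.

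Background was each array's 95th percentile of 687 probe sets of non-chicken sequences without a symbol, averaged per cell type, a choice made after seeing the data. Where the lower group's mean lay under it, "at least" folds use the higher of background and the gene's own value. All array values are given for up to 10 called members per direction with the largest differences and for the 6 uncalled members with the highest mean. Other members are given by range or mean, and up to 3 called genes per direction in each list. List genes were matched by exact symbol. A summed level is log2 of the sum of the linear values of a list. The fit was tested on simulated data. Alternatives changed the scaling (bacterial controls, 75th percentile, quantile), the probe set rule, a filter on dim probe sets, the intensity trend, array weights, limma's treat, a replicate block and each array left out in turn. The members and lists were chosen with earlier results of these data known. The number of arrays limits the precision, and no sequence was used here.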

Additional observations from a re-analysis of the deposited data

How the results depend on the processing

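Scaling to the bacterial controls bioB, bioC and bioD, but not cre, moved the counts furthest. It gave 26 phosphatase genes higher in PGC (8 PTPN, 7 PTPR, 1 PTP4A, 10 DUSP) and 4 in CEF (1 PTPR, 0 PTP4A, 1 DUSP, and 2 PTPN as before). The median difference over the 55 phosphatase genes was 0.81. The scaling called 17324 of 38439 probe sets in place of 9469, with 15563 towards PGC and 1761 towards CEF. It also turned the sign of 16 genes not called, namely DUSP14 (0.45), DUSP21 (0.81), DUSP22AL (0.66), DUSP26 (0.28), DUSP27 (0.73), DUSP28 (0.71), DUSP29 (0.79), PTP4A2 (0.065), PTPN11 (0.26), PTPN7 (0.78), PTPN9 (0.089), PTPRA (0.73), PTPRM (0.18), PTPRN (0.63), PTPRO (0.27) and PTPRT (0.42). By construction it adds the same amount to every gene of an array, and whether the controls or the other genes scale these arrays better was not tested. The 75th percentile called 2 PTP4A genes in CEF, gave a median of -0.28 and turned DUSP11RC1I (-0.0085), DUSP23 (-0.078), PTPRB (-0.12), PTPRD (-0.024) and PTPRU (-0.054). Quantile normalization turned DUSP11RC1I (-0.052) and DUSP23 (-0.056). The mean of all probe sets called 7 of the 55 phosphatase genes in PGC (2 PTPN, 1 PTPR, 1 PTP4A, 3 DUSP) and 10 in CEF (2 PTPN, 4 PTPR, 2 PTP4A, 2 DUSP). Of all 13009 genes it called 2078 in PGC and 1496 in CEF. The treat test, which asks for more than 2-fold, called 0 PTP4A genes in CEF and 5664 probe sets. The filter on dim probe sets left 49 of 55 genes, with a median of 0.045. The cause of these shifts was not tested further.

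Without each array in turn, 4 to 5 phosphatase genes were higher in PGC and 11 to 12 in CEF, the median ran from -0.25 to -0.06 and 9297 to 9703 probe sets were called. Of genes not called, DUSP11RC1I ran from -0.0055 to 0.31, DUSP23 from -0.036 to 0.19, PTPRB from -0.058 to 0.042, PTPRD from -0.22 to 0.29 and PTPRU from -0.013 to 0.16. All 15 calls held in these 6 fits. Arrays with the same replicate number did not deviate together (correlations of -0.036, -0.014 and 0.0088). Arrays with unlike numbers gave -0.079 to 0.084. These values cannot show whether the numbers pair the cultures, since a pairing with little shared variation would look the same. With the replicate number as a block the same 4 and 11 genes were called, and 9498 probe sets. Calls of dim genes are limited by the background.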
